A study of Mus musculus with 4 samples.

Results

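Lipid-associated macrophages (LAMs) carrying the Gpnmb transcript were described in non-parenchymal cells of mouse liver, profiled by droplet single-cell RNA sequencing. A cell was counted as a LAM cell when it held at least 1 UMI (unique molecular identifier, standing for 1 captured transcript) of Gpnmb, at least 1 UMI of Trem2 and Spp1 together and at least 2 UMIs of Lyz2 and Csf1r together, with at most 1 UMI of Clec4f, no UMI of Cd3e or Cd79a, and fewer than 3 of the 5 genes Mmp12, Mmp13, Cd207, Ms4a7 and Cx3cr1 detected. The rule found 153 of 32150 cells, of which 5 were in the HFD_EXE library, 145 in HFD_sed and 3 in S. These 13 genes chose the members, so their levels are given as a description.

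The groups were HFD_EXE and HFD_sed, named in the labels for a high fat diet (HFD), and S, with neither diet nor activity spelled out for S. The series concerns diet and physical exercise, and the labels do not write out sed, EXE or S. All groups were livers of C57BL/6J mice aged 30 weeks, and no transgene or drug is named in the labels. Each group had 1 library, so cells of a library are not replicates, no test between groups was possible, and the groups cannot be told apart from their libraries. Another library, E, was not analysed here.

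LAMs are macrophages that gather where lipid or dying cells accumulate, in fat tissue, atherosclerotic plaque and fatty liver, and in mice many are thought to come from blood monocytes. They are recognised by the lipid-sensing receptor TREM2, which signals through the adaptor DAP12, by the secreted matrix protein osteopontin (Spp1) and by GPNMB, a transmembrane glycoprotein of lysosomes and melanosomes whose gene is a known target of the MiT/TFE transcription factors. Kupffer cells, the resident macrophages of the liver sinusoid, express Clec4f, Vsig4 and Timd4, while classical monocytes express Ly6c2 and Ccr2.

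The promoter of Gpnmb, the gene that sets these cells apart by the rule, is shown for the motif found in it. RefSeq places the window at chr6:49036268-49036567 of GRCm38.p6, plus strand, from 250 bases before the start site to 50 bases after it, while the counts were made on GRCm39. Capitals mark TGACTCA, a core site of the AP-1 factors, which began 8 bases after the start site. On both strands this motif occurred in the promoter windows of 1607 of 27025 genes (5.95%). The window held no TCACGTGA, an E-box form bound by MiT/TFE factors, which 304 of the 27025 genes had (1.12%), and the windows of Trem2 and Spp1 held neither motif. A match of letters is a description, not evidence of binding.
Gpnmb promoter: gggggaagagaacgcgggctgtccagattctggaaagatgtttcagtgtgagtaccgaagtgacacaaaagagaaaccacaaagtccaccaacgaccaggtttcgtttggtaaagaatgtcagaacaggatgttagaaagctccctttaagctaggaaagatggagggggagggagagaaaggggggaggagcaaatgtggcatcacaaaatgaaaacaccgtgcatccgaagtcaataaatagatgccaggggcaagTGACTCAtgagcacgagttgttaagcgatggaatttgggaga

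LAM cells were most numerous in HFD_sed. They made up 5 of 10467 cells in HFD_EXE (0.0478%, exact 95% interval 0.0155 to 0.111), 145 of 11068 in HFD_sed (1.31%, 1.11 to 1.54) and 3 of 10615 in S (0.0283%, 0.00583 to 0.0826). The HFD_EXE share was thus 27.4-fold under that of HFD_sed (95% interval 11.5 to 85.7), and the HFD_sed share was 46.4-fold over that of S (15.5 to 227). HFD_EXE and S differed by less than the counting error, at a ratio of 1.69 (0.329 to 10.9). These intervals cover counting error only, not differences between mice. The folds also depend on the limit on Clec4f, which alone kept out 2 cells in HFD_EXE, 16 in HFD_sed and 8 in S.

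The order was the same among mononuclear phagocytes, taken as LAM cells plus 6 further gated classes (Kupffer, capsule-like, classical monocyte, nonclassical monocyte, conventional dendritic and Gpnmb-negative Trem2 cells). LAM cells were 0.404% of 1237 mononuclear phagocytes in HFD_EXE, 6.33% of 2290 in HFD_sed and 0.102% of 2946 in S. The HFD_EXE share was 15.7-fold under that of HFD_sed (6.56 to 49.0) and the HFD_sed share was 62.2-fold over that of S (20.9 to 305). The makeup of the compartment also differed, with Kupffer cells forming 77.1% of it in HFD_EXE, 35.0% in HFD_sed and 92.3% in S. Classical monocytes numbered 93 cells in HFD_EXE, 639 in HFD_sed and 57 in S. The part of these shifts in the LAM share was not tested. Median UMIs per cell were 4975 in HFD_EXE, 4272 in HFD_sed and 6306 in S. Cells with at least 2000 UMIs were also thinned to that depth, and shallower cells were left out. No LAM cell then remained in HFD_EXE (0 of 8866 cells, which allows a share of up to 0.0338%), against 0.747% of such cells in HFD_sed and 0.0209% in S.

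**Figure D1:**
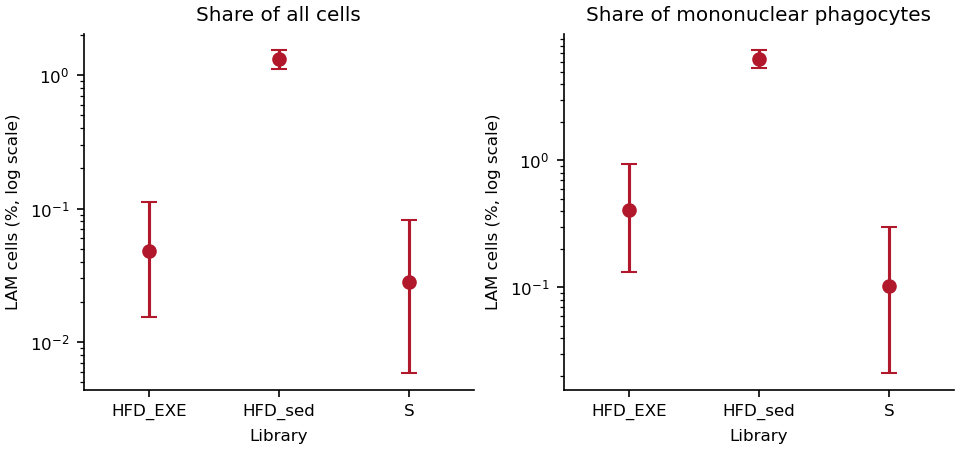
Share of LAM cells in percent on a log axis, of all cells (left) and of mononuclear phagocytes (right), for the single libraries HFD_EXE, HFD_sed and S, with exact 95% intervals for counting error. HFD_sed stands at 1.31% and 6.33%, and the intervals of HFD_EXE and S overlap each other but not that of HFD_sed.

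The libraries held 11280, 11752 and 11660 cell barcodes for HFD_EXE, HFD_sed and S, where the labels speak of 5000 to 6000 captured cells per sample, and 91.0% to 94.2% of them had at least 500 UMIs, 300 genes and under 15% mitochondrial UMIs. Pairs of libraries shared 29 to 46 barcodes, and 1 LAM barcode was among them. LAM cells of HFD_sed had a median of 9724 UMIs (1420 to 30551), against 8323 in other mononuclear phagocytes and 4272 in all cells, and a median mitochondrial share of 2.16%, against 3.61% in all cells. Doublets were scored and not removed in the main results: 9 of the 145 lay in the 5% of HFD_sed cells with the highest Scrublet score. The median score was 0.0435 in these LAM cells, above the 0.0247 of all HFD_sed cells.

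Among the 145 LAM cells of HFD_sed, Gpnmb had a median of 4 UMIs and a maximum of 47, at 679 CPM (UMIs of the summed class scaled to a total of 1000000). Trem2 was detected in 71.7% of them at 140 CPM and Spp1 in 58.6% at 1979 CPM. Spp1 was the more uneven, with a median of 1 UMI and 396 in the highest cell. Of the 145, 60 had Trem2 without Spp1, 41 had Spp1 without Trem2 and 44 had both. Lyz2, the macrophage lysozyme, had a median of 92 UMIs and Csf1r, the receptor of the macrophage growth factor, a median of 7.

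The cells at the edge of the rule were many. Inside it, 41 cells had a single Gpnmb UMI, 29 had 2 or 3 and 75 had 4 or more. Of all the members, 44 had only 1 UMI of Trem2 and Spp1 together. Just outside it, 580 cells met every other condition with no Gpnmb UMI, and 81 had Gpnmb with neither Trem2 nor Spp1. A further 37 cells were kept out only by 3 or more of the 5 genes of the capsule-like set, and 16 only by 2 or more UMIs of Clec4f. In S, 8 cells were kept out only by Clec4f, with a median of 5 Gpnmb UMIs, against 1 UMI in each of its 3 members. In all, 480 cells of HFD_sed had a Gpnmb UMI, against 42 in HFD_EXE and 91 in S.

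B cells, which should lack these transcripts, gave a background level. The B cell gate left out cells richer in Lyz2, so this level may be low for cells that carry myeloid RNA. At 2000 UMIs per cell, Gpnmb was found in 56.3% of LAM cells, 19.7% of capsule-like cells, 3.68% of Kupffer cells, 1.73% of classical monocytes and 0.369% of B cells. Trem2 was found in 26.4% of LAM cells, 21.4% of capsule-like cells, 11.9% of Kupffer cells, 8.79% of classical monocytes and 0.739% of B cells. Spp1 was in 44.4% of LAM cells and in 4.90% to 5.49% of those other classes, close to the 3.94% of B cells. By summed counts Spp1 was at 185 CPM in Kupffer cells, 79.9 CPM in capsule-like cells, 51.0 CPM in classical monocytes and 58.1 CPM in B cells, and the part of free RNA in these levels was not tested. Before thinning, the B cell shares were 0.797% for Gpnmb, 1.03% for Trem2 and 5.01% for Spp1, at a median of 2929 UMIs, against a median of 9724 UMIs in LAM cells.

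**Figure D2:**
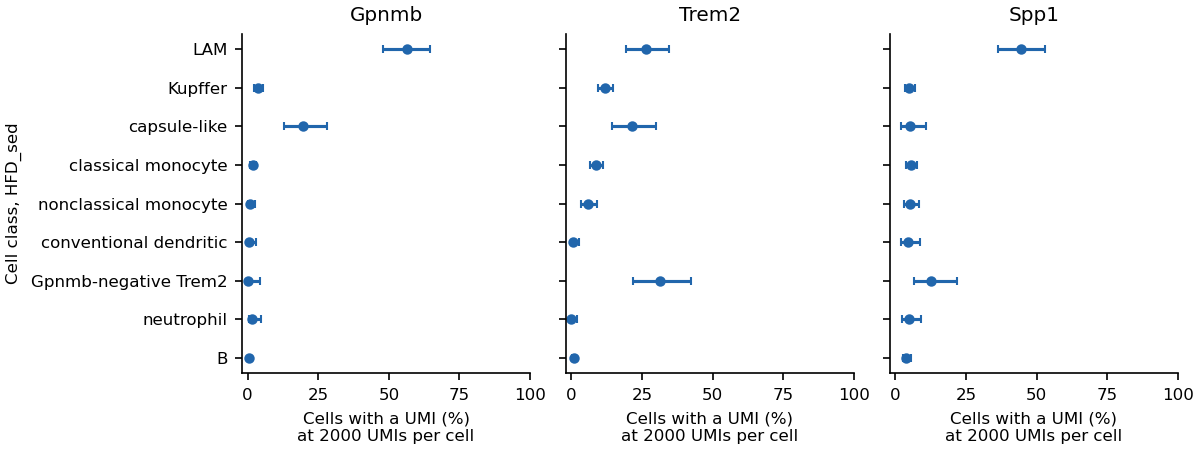
Percentage of HFD_sed cells with a UMI of Gpnmb, Trem2 or Spp1 after each cell of at least 2000 UMIs was thinned to that depth, for LAM cells and 8 other gated classes, with exact 95% intervals. The genes of the rule are shown as a description: Gpnmb reaches 56.3% in LAM cells, and Spp1 lies near the B cell level of 3.94% in most other classes.

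Markers that the rule did not use are also given as a description. They are no independent check of the label, since genes that travel with the rule genes had to differ. Of Cd9, Cd63, Lgals3, Fabp5 and Lpl, the first 4 were higher in the LAM cells of HFD_sed than in other mononuclear phagocytes and Lpl, encoding lipoprotein lipase, was at 1302 CPM in LAM cells and 1068 CPM in the others. In a joint clustering no cluster took the lipid-associated name. 118 of the 145 members (81.4%) fell in the classical monocyte-like cluster, of which they were 10.2%, and 23 (15.9%) in the capsule-like macrophage cluster. The remaining 4 cells fell in the dendritic cluster (2) and in an unnamed cluster (2), whose top genes included Esm1, Angpt2 and Edn1. Each of these last 2 cells had 1 UMI of Gpnmb, 1 of Spp1 and none of Trem2. Lineage was not measured.

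LAM cells of HFD_sed were compared with the 2145 other mononuclear phagocytes of the same library by summed counts. A gene was called higher or lower when it held at least 20 UMIs over both classes, the ratio of CPM was at least 1.5 and its exact 95% interval excluded 1. The interval covers counting error of these cells, not the spread between cells or mice, and it is not adjusted over genes. Of 13387 genes, 606 were called higher (4.53%) and 1352 lower (10.1%), and the median over all of them was -0.12 on the log2 scale. Since the members were chosen by Gpnmb, Trem2 and Spp1 and against Clec4f, genes that travel with those had to differ, and the values below describe the cells.

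In the lipid-associated list 13 of 21 genes were higher and none lower, and the list had a median log2 ratio of 1.21. Fabp5, a fatty acid binding protein, was at 1203 CPM (1148 to 1260) in LAM cells and 182 CPM (176 to 189) in the others, a log2 ratio of 2.72 (2.64 to 2.80). Cd63, a tetraspanin of late endosomes and lysosomes, was at 583 CPM in LAM cells and 90.4 CPM in the others (2.69, 2.57 to 2.81). It was widely shared, in 69.0% of LAM cells and 18.6% of the others. Cd9, a related tetraspanin, was at 583 CPM in LAM cells and 125 CPM in the others (2.23). Cstb, which encodes a cathepsin inhibitor, was at 1773 CPM in LAM cells and 407 CPM in the others (2.12). Lgals3, encoding the lectin galectin-3, was at 3476 CPM in LAM cells and 939 CPM in the others (1.89).

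Several genes of the same list did not follow. Apoe, the lipid carrier, was at 7893 CPM in LAM cells and 9376 CPM in the others. Fabp4 was at 309 CPM in LAM cells and 332 CPM in the others, and Cd36, a scavenger receptor for fatty acids, at 339 CPM in LAM cells and 366 CPM in the others. None of these differences reached 1.5-fold.

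The 12 genes with the best-bounded higher levels included members outside any lipid list. F7, encoding coagulation factor VII, was at 68.2 CPM in LAM cells and 4.96 CPM in the others (log2 ratio 3.78, 3.36 to 4.20), and it was detected in 24.1% of LAM cells and 2.24% of the others. F10, encoding coagulation factor X, was at 613 CPM in LAM cells and 105 CPM in the others (2.54), in 71.7% of LAM cells and 26.2% of the others. Within the others, F10 was at 29.8 CPM in Kupffer cells and 34.4 CPM in capsule-like cells. It was also among the top genes of the classical monocyte cluster, where most members lay, so it was not particular to LAM cells. Factor VII belongs to the extrinsic coagulation pathway, which activates factor X. Emp1, a membrane protein gene, was at 137 CPM in LAM cells and 17.5 CPM in the others (2.96). Fam20c, which encodes a kinase of secreted proteins, was at 206 CPM in LAM cells and 32.7 CPM in the others (2.66), in 62.8% of LAM cells and 13.9% of the others. Il1rn, the antagonist of the interleukin 1 receptor, was at 840 CPM in LAM cells and 200 CPM in the others (2.07). Rai14, Plxna1 and Clec4d completed the set with Fabp5, Cd63, Cd9 and Cstb, at log2 ratios of 2.72, 2.48 and 2.18.

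The 12 best-bounded lower genes were mostly those of Kupffer cells. Cd163, the haemoglobin scavenger receptor, was at 1.34 CPM in LAM cells (2 UMIs) and 100 CPM in the others (log2 ratio -6.23, -9.27 to -4.37). Marco, a scavenger receptor, was at 16.7 CPM in LAM cells and 275 CPM in the others (-4.04), and 1 cell held 52.0% of its LAM UMIs. Vsig4, a complement receptor, was at 45.4 CPM in LAM cells and 454 CPM in the others (-3.32). Of 14 Kupffer identity genes, 13 were lower and none higher, at a median log2 ratio of -3.0. The rule itself kept out cells with 2 or more UMIs of Clec4f, and 802 of the 2145 comparison cells were Kupffer cells.

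**Figure D3:**
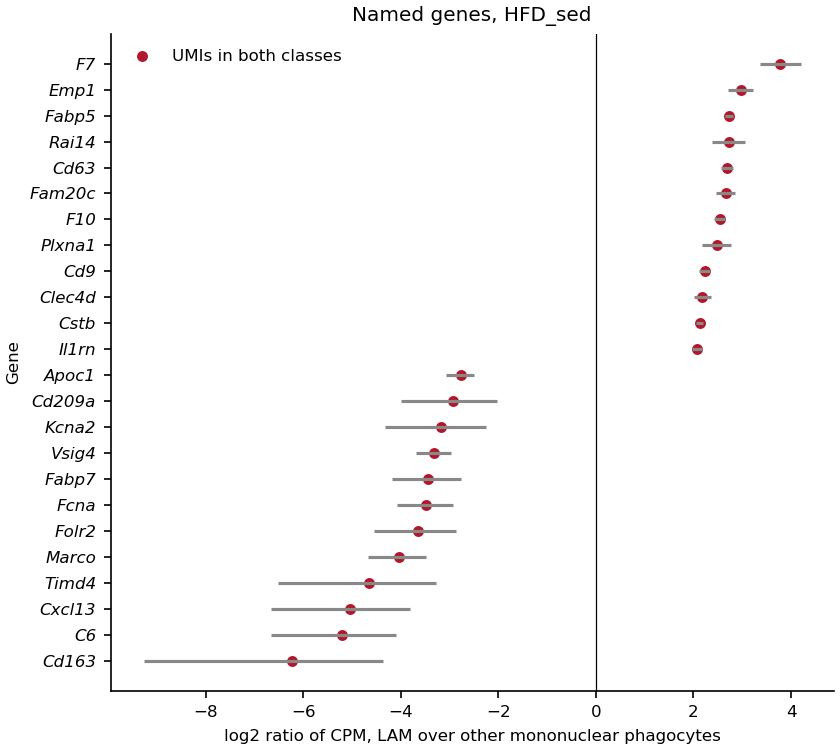
Log2 ratio of CPM in LAM cells over other mononuclear phagocytes of HFD_sed for 12 genes called higher and 12 called lower, with exact 95% intervals for counting error. F7 lies at 3.78 and Cd163 at -6.23, and no interval crosses 0.

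Genes of acid compartments were partly higher. The lysosomal list had a median log2 ratio of 0.23, with 6 of its 24 genes higher and 3 lower. Ctsk, encoding cathepsin K, was at 34.7 CPM in LAM cells and 2.13 CPM in the others (log2 ratio 4.03, 3.40 to 4.66), and Gla, encoding a lysosomal galactosidase, at 89.5 CPM in LAM cells and 22.8 CPM in the others (1.98). Among 16 subunits of the V-ATPase, the proton pump of lysosomes, 4 were higher and none lower, led by Atp6v0c at 1766 CPM in LAM cells and 718 CPM in the others (1.30). Of 12 MiT/TFE and nutrient-sensing genes, 2 were higher and none lower. These were Mitf, a MiT/TFE factor, at 96.2 CPM in LAM cells and 35.7 CPM in the others (1.43), and Fnip2, which encodes a partner of folliculin, at 132 CPM in LAM cells and 38.6 CPM in the others (1.77).

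The signalling partners of the rule genes differed little. Tyrobp, encoding DAP12, was at 2395 CPM in LAM cells and 2236 CPM in the others, and 1 of 14 genes of the TREM2 list was higher and 2 lower. None of 8 receptor genes for osteopontin was called in either direction, with Cd44 at 568 CPM in LAM cells and 637 CPM in the others. In lipid uptake and storage 5 of 17 genes were higher and 2 lower. Olr1, a receptor for oxidised lipoprotein, was at 34.1 CPM in LAM cells and 7.46 CPM in the others (log2 ratio 2.19), and Hilpda, encoding an inhibitor of lipolysis, at 146 CPM in LAM cells and 60.3 CPM in the others (1.27). Cholesterol efflux genes gave 2 of 14 higher and 2 lower, including Npc1, the lysosomal cholesterol exporter, at 150 CPM in LAM cells and 70.1 CPM in the others (1.10), and Apoc1, encoding an apolipoprotein, at 69.5 CPM in LAM cells and 474 CPM in the others (-2.77).

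Of 17 genes of glycolysis and hypoxia, 12 were higher and none lower, at a median log2 ratio of 1.0. By class this median was lowest against classical monocytes (0.63), and it was 1.47 against Kupffer cells. Pgk1, a glycolytic kinase, was at 592 CPM in LAM cells and 259 CPM in the others (log2 ratio 1.20, 1.09 to 1.30), and Egln3, encoding an oxygen sensor, at 43.4 CPM in LAM cells and 10.8 CPM in the others (2.0). In the NRF2 and iron list 5 of 12 genes were higher and none lower. Slc7a11, the cystine importer, was at 282 CPM in LAM cells and 72.0 CPM in the others (1.97), and Fth1, the ferritin heavy chain, at 18884 CPM in LAM cells and 7024 CPM in the others (1.43). Hmox1, encoding haem oxygenase, was at 703 CPM in LAM cells and 838 CPM in the others.

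Secreted factors were mixed. The matrix and repair list had 11 of 22 genes higher and 2 lower (median 0.62). Vegfa, the vascular growth factor, was at 69.5 CPM in LAM cells and 14.5 CPM in the others (log2 ratio 2.26), and Mmp14, a membrane-bound matrix protease, at 278 CPM in LAM cells and 104 CPM in the others (1.42). Igf1 was at 162 CPM in LAM cells and 243 CPM in the others. The inflammatory list, of 18 cytokines, chemokines and enzymes, had 7 higher and 2 lower. Cxcl2, a neutrophil attractant, was at 1685 CPM in LAM cells and 535 CPM in the others (1.65), while Il1b was at 897 CPM in LAM cells and 1153 CPM in the others. The call for Nos2, encoding inducible nitric oxide synthase, rested on 1 cell, which held 85.5% of its 62 UMIs: its level was 41.4 CPM with that cell and 6.07 CPM without it. None of 8 genes of MHC class II presentation was called, and 11 of 15 cell cycle genes were lower and none higher. The cell cycle result depended on the class compared. Against conventional dendritic cells 14 of 15 were lower, and against Kupffer cells 9 of 13, with none higher in either. Against classical monocytes 7 of 12 were lower and 2 higher, and against Gpnmb-negative Trem2 cells none of 6 was called.

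**Figure D4:**
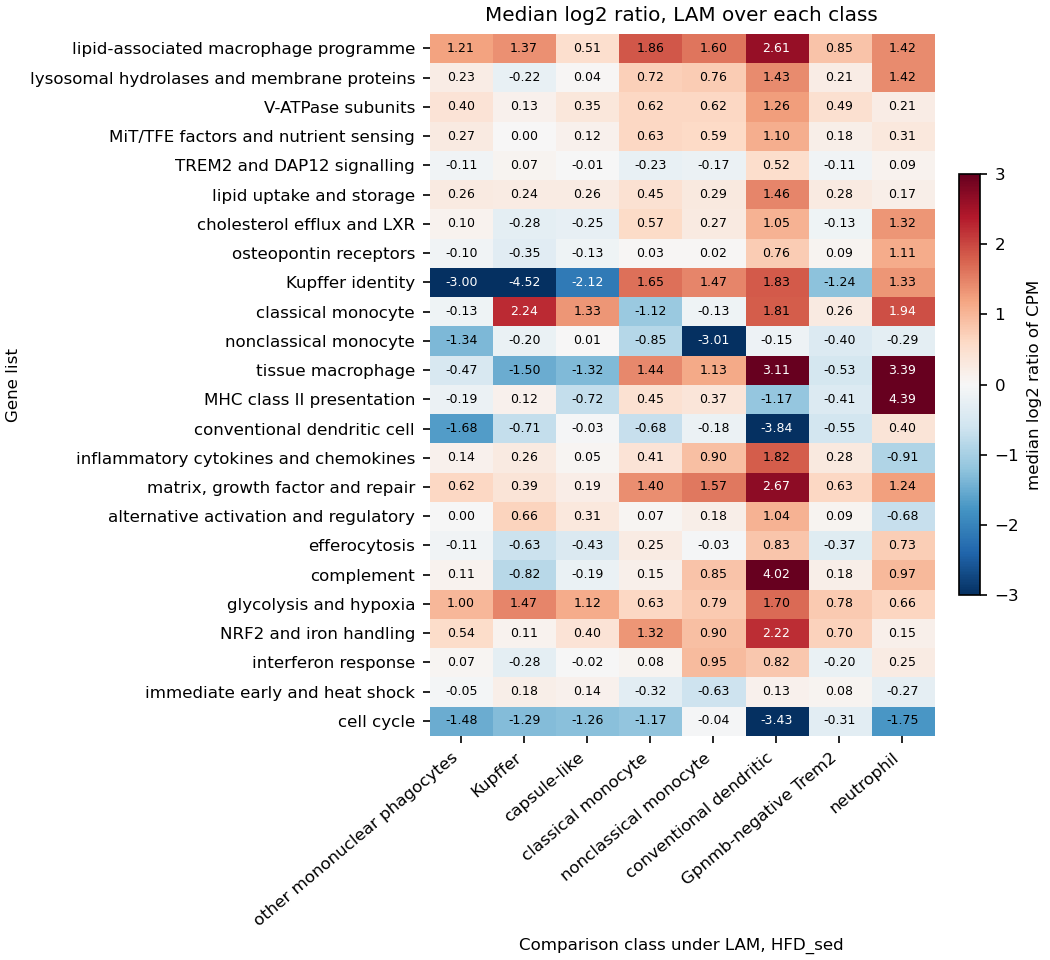
Median log2 ratio of CPM in LAM cells over other mononuclear phagocytes (first column), each of the 6 classes within them and neutrophils, for 24 gene lists in HFD_sed. The lipid-associated list is positive in every column (0.51 to 2.61), and the Kupffer list runs from -4.52 against Kupffer cells to 1.83 against conventional dendritic cells. By summed CPM, which is not drawn, the lipid-associated list was lower in LAM cells (26899) than in Kupffer (31822) and capsule-like cells (39165).

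Set against the 639 classical monocytes of HFD_sed, LAM cells had more of the macrophage genes and less of the monocyte genes. The background was 10.4% of 10990 genes higher and 10.5% lower. Of the lipid-associated list, 19 of 20 genes were higher and none lower (median 1.86), and Cd63 stood at 583 CPM in LAM cells and 51.7 CPM in monocytes (log2 ratio 3.50, 3.31 to 3.69). Of 13 tissue macrophage genes, 11 were higher and none lower, among them C1qc, a chain of complement C1q, at 631 CPM in LAM cells and 73.4 CPM in monocytes (3.10). Of 14 classical monocyte genes, 10 were lower and none higher. The gate of the monocytes itself required Ly6c2 and Ccr2, so these genes, and those that travel with them, were partly set to be lower in LAM cells. Lysosomal genes gave 15 of 24 higher and 1 lower, and NRF2 and iron genes 9 of 12 higher and 1 lower. Glycolysis and hypoxia genes gave 10 of 17 higher and none lower (median 0.63). All 9 sinusoidal endothelial markers were also higher (median 0.86), and their part in the result was not tested. The monocyte gate held 32 cells with a Siglech UMI (5.01%), a marker of plasmacytoid dendritic cells, and 10.3% of its cells lay in the dendritic cluster. Siglech and Ccr9 were among the named lower genes for that comparison, at 6.68 and 1.34 CPM in LAM cells, against 97.0 and 57.7 CPM in the monocyte gate.

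Against the 802 Kupffer cells, the monocyte genes pointed the other way. The background was 8.98% of 11405 genes higher and 20.7% lower. Of 14 classical monocyte genes, 11 were higher and none lower (median 2.24), with F13a1, the coagulation factor XIII A chain, at 473 CPM in LAM cells and 37.3 CPM in Kupffer cells (log2 ratio 3.66, 3.44 to 3.89). F10 was at 613 CPM in LAM cells and 29.8 CPM in Kupffer cells (4.36). All 14 Kupffer identity genes were lower. C4b, a complement gene, had no UMI in LAM cells, against 566 UMIs and 96.0 CPM in Kupffer cells. With the LAM class set to a floor of 3 counts it was 47.9-fold lower, and the exact interval of the log2 ratio reached up to -5.28. Lysosomal genes gave 6 of 24 higher and 8 lower (median -0.22), and NRF2 and iron genes 5 of 12 higher and 2 lower. The lipid-associated list gave 11 of 20 higher and 5 lower, and Lpl was at 1302 CPM in LAM cells and 2406 CPM in Kupffer cells. All 9 sinusoidal endothelial markers were lower in LAM cells, and 12.6% of the gated Kupffer cells lay in the hepatocyte cluster and 29.6% in the capsule-like cluster. The part of these markers and cells in the result was not tested.

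The 119 capsule-like cells also carried Gpnmb, at 173 CPM, against 679 CPM in LAM cells, and the 5 genes that separated them were used in the rule. The background was 8.3% of 9245 genes higher and 10.3% lower. Of the lipid-associated list, 9 of 20 genes were higher and 1 lower (median 0.51), and 14 of 16 glycolysis and hypoxia genes were higher. Summed over its genes, however, the lipid-associated list was at 26899 CPM in LAM cells and 39165 CPM in capsule-like cells. Emp1 was at 137 CPM in LAM cells and 4.92 CPM in capsule-like cells (log2 ratio 4.80, 3.79 to 6.03), and Slpi, a secreted protease inhibitor, at 287 CPM in LAM cells and 20.9 CPM in capsule-like cells (3.78). Saa3 had no UMI in capsule-like cells, but 81.7% of its LAM UMIs came from 1 cell. Of 13 tissue macrophage genes, 10 were lower and 1 higher, and 5 of 8 MHC class II genes were lower and none higher. Clu, encoding the chaperone clusterin, was at 5.35 CPM in LAM cells and 109 CPM in capsule-like cells (-4.35).

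The 93 Gpnmb-negative Trem2 cells were those left by the gates before theirs, and cells with Spp1 but no Trem2 were not among them. Of the 93, 48.4% lay in the classical monocyte cluster and 37.6% in the capsule-like cluster, against 81.4% and 15.9% of LAM cells. The part of this mix in the values below was not tested. The background was 5.89% of 8475 genes higher and 6.1% lower. Of the lipid-associated list, 14 of 20 genes were higher and 1 lower (median 0.85), with Cd9 at 583 CPM in LAM cells and 165 CPM in the Gpnmb-negative cells (log2 ratio 1.82, 1.57 to 2.09). Glycolysis and hypoxia genes gave 12 of 16 higher and none lower, and NRF2 and iron genes 7 of 11 higher and none lower. Ly6c2, the monocyte antigen, was at 205 CPM in LAM cells and 34.1 CPM in the Gpnmb-negative cells (2.59), but the gate for classical monocytes had already taken Ly6c2 cells with Ccr2 out of that class. C1qa was at 809 CPM in LAM cells and 2087 CPM in the Gpnmb-negative cells (-1.37), and Slc40a1, the iron exporter, at 336 CPM in LAM cells and 893 CPM in the Gpnmb-negative cells (-1.41). Of 9 endothelial markers, 5 were lower in LAM cells and none higher, and their part in the result was not tested.

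The members were not uniform. Clustering itself uses these genes, so values by cluster are a description only. The 23 members in the capsule-like cluster had Cd5l, an apoptosis inhibitor of macrophages, at 1941 CPM, against 31.4 CPM in the 118 members of the classical monocyte cluster. C1qa was at 3282 CPM in the 23 and 240 CPM in the 118, while Fn1, encoding fibronectin, was at 10.6 CPM in the 23 and 960 CPM in the 118. Il1rn was at 53.2 CPM in the 23 and 1052 CPM in the 118, and Cd9 at 128 CPM in the 23 and 702 CPM in the 118. The background between the clusters was 11.4% of 7014 genes higher and 9.28% lower. Of 9 Kupffer identity genes, 8 were higher in the 23 and none lower, 13 of 14 classical monocyte genes were lower and none higher, and 15 of 16 glycolysis and hypoxia genes were lower and none higher. All 9 sinusoidal endothelial markers were higher in the 23 (median 1.31), and their part in the result was not tested.

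Members rich in Gpnmb had higher levels of other lipid-associated genes. The 75 cells with 4 or more Gpnmb UMIs had Cd63 at 862 CPM, against 123 CPM in the 41 cells with 1 UMI (log2 ratio 2.81, 2.41 to 3.24). Fabp5 was at 1807 CPM in the 75 and 423 CPM in the 41, and Spp1, a gene of the rule, at 3049 CPM in the 75 and 282 CPM in the 41. The background was 6.15% of 6647 genes higher and 8.12% lower. Of the lipid-associated list, 13 of 20 genes were higher and 2 lower, of NRF2 and iron genes 8 of 11 higher and none lower, and of V-ATPase subunits 7 of 16 higher and none lower. Plac8, a monocyte gene, was at 334 CPM in the 75 and 1490 CPM in the 41. All 9 Kupffer identity genes measured and 8 of 9 endothelial markers were lower in the 75, and the part of the endothelial markers in the result was not tested. Median depth was 10109 UMIs in the 75 and 9450 in the 41.

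Cells with Trem2 alone and cells with Spp1 alone also differed. Apoe was at 13407 CPM in the 60 Trem2-only cells and 4107 CPM in the 41 Spp1-only cells (log2 ratio 1.71, 1.63 to 1.78), and Il1rn at 341 CPM in the Trem2-only cells and 1163 CPM in the Spp1-only cells (-1.77, -2.01 to -1.53). The background was 6.18% of 6145 genes higher and 8.1% lower. Of 8 MHC class II genes, 7 were higher in the Trem2-only cells and none lower, and of 16 glycolysis and hypoxia genes 9 were lower and none higher. Of the lipid-associated list, 1 of 19 genes was higher and 8 lower. In the classical monocyte cluster lay 43 of the 60 Trem2-only cells and 35 of the 41 Spp1-only cells, and the difference was not tested. Of 9 endothelial markers, 7 were lower in the Trem2-only cells and none higher. The Spp1-only cells included the 2 members of the unnamed cluster, whose part in this was not tested. Spp1 was detected in 5.01% of B cells, and the part of free RNA in the Spp1-only members was not tested.

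The 44 cells with both Trem2 and Spp1 were compared with the 41 Spp1-only cells. Among these, 3.13% of 5661 genes were higher in the cells with both and 5.55% lower. Cd63 was at 939 CPM in the cells with both and 458 CPM in the Spp1-only cells, and Cd9 at 990 CPM in the cells with both and 654 CPM in the Spp1-only cells. Of 19 lipid-associated genes 4 were higher and none lower, and of 14 interferon response genes 7 were higher and none lower. Of 9 endothelial markers 7 were lower and none higher, and their part in the result was not tested.

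Complement C1q, made by tissue macrophages, also differed among the members. The 58 cells with 5 or more UMIs of C1qa, C1qb and C1qc had Pf4, encoding a platelet chemokine, at 247 CPM, against 3.68 CPM in the 87 cells with fewer. Slc40a1 was at 687 CPM in the 58 and 42.9 CPM in the 87 (log2 ratio 4.0, 3.51 to 4.54), while F10 was at 304 CPM in the 58 and 870 CPM in the 87 (-1.52, -1.75 to -1.29). All 23 members of the capsule-like cluster were among the 58, with 35 members of the classical monocyte cluster, so this split partly repeats the split by cluster. The background was 6.06% of 7150 genes higher and 5.51% lower. Of 14 classical monocyte genes 12 were lower and none higher, of 9 Kupffer identity genes 8 were higher and none lower, and of 16 glycolysis and hypoxia genes 13 were lower and none higher. Cd63 and Fabp5 were close between them, with Cd63 at 571 CPM in the 58 and 593 CPM in the 87, and Fabp5 at 1200.0 CPM in the 58 and 1205 CPM in the 87. None of 9 endothelial markers was called in this split.

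A UMI of Ly6c2 or Ccr2 was present in 119 of the 145 members and absent from 26. Ly6c2 was detected in 51.7% of LAM cells and 3.76% of B cells, and at 2000 UMIs per cell in 29.2% of LAM cells and 1.72% of B cells. Ccr2 was detected in 65.5% of LAM cells and 3.08% of B cells, and at 2000 UMIs per cell in 40.3% of LAM cells and 0.862% of B cells. Since 1 UMI decides the side of this split, it is a split by detection. Between these, 4.31% of 7150 genes were higher in the 119 and 7.22% lower. Slc40a1 was at 167 CPM in the 119 and 1137 CPM in the 26 (log2 ratio -2.76, -3.03 to -2.50), and Apoe at 6035 CPM in the 119 and 16717 CPM in the 26. Cd63 was at 590 CPM in the 119 and 553 CPM in the 26. Of 9 Kupffer identity genes 6 were lower in the 119 and none higher, and of 9 endothelial markers 8 were lower and none higher, the part of which in the result was not tested.

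**Figure D5:**
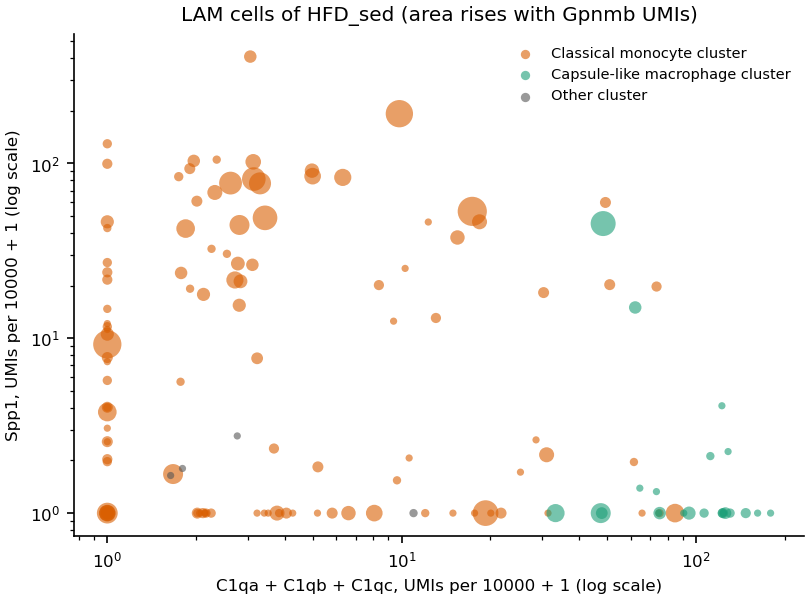
Each point is 1 of the 145 LAM cells of HFD_sed, with its C1qa, C1qb and C1qc UMIs per 10000 plus 1 on the horizontal log axis and its Spp1 UMIs per 10000 plus 1 on the vertical log axis. Area rises with Gpnmb UMIs and colour gives the cluster: the 23 capsule-like cells lie to the right, and the 118 classical monocyte cells extend from left to right.

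The 8 members outside HFD_sed are given cell by cell or as summed UMIs, since they are too few for a ratio. In HFD_EXE, Gpnmb was at 1 or 2 UMIs in each of the 5 cells, and in S at 1 UMI in each of the 3. Fabp5 had 22 UMIs in the 5 HFD_EXE cells and none in the 3 S cells, and Cd9 had 15 in HFD_EXE and none in S, out of 50532 and 46634 UMIs in all. Lgals3 had 44 UMIs in HFD_EXE and 67 in S. In HFD_EXE 1 cell lay in the endothelial cluster and held 14 UMIs of Stab2, 18 of Clec4g and 23 of Kdr, all endothelial genes. Another HFD_EXE cell held 28 UMIs of Mmp12. The 3 S cells had 27, 31 and 30 UMIs of C1qa, 19, 22 and 4 of Ccr2 and none of Ly6c2. The name LAM is used for these 8 cells by the rule only.

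Markers of other cell types were low or near the level of the comparison cells in LAM cells of HFD_sed. The 11 neutrophil markers summed to 139 CPM in LAM cells and 464 CPM in other mononuclear phagocytes, with 4 of the 11 at 0 in LAM cells, Ly6g among them. The 9 endothelial markers summed to 1082 CPM in LAM cells and 1247 CPM in the others, with up to 241 UMIs in a single LAM cell. The 11 hepatocyte markers summed to 442 CPM in LAM cells and 699 CPM in the others, and the 8 cholangiocyte markers to 10.0 CPM in LAM cells and 29.0 CPM in the others, Krt19 and Sox9 being at 0 in LAM cells. Of the 10 stellate, fibroblast and mesothelial markers, 6 were at 0. The T and NK list summed to 174 CPM in LAM cells and 113 CPM in the others, and Il7r, a cytokine receptor chain, made up 119 CPM of it in LAM cells, against 13.2 CPM in the others (log2 ratio 3.17, 2.89 to 3.46). Il7r was found in 29.0% of LAM cells and 5.92% of the others, while Cd3d stood at 4.68 CPM in LAM cells and 7.89 CPM in the others.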

How the data were processed

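Single-cell suspensions of liver non-parenchymal cells were processed with the 10x Genomics Chromium 3′ kit, version 3, per the labels' protocols, and Cell Ranger 6.1.2 and GRCm39 are named in the submitters' processing notes. The deposited matrices hold raw UMI counts per gene and barcode. Barcodes were kept from 500 UMIs and 300 genes up, below a mitochondrial share of 15%. From the deposited counts, cells were gated by UMIs, in the order LAM, Kupffer (2 or more Clec4f), capsule-like (3 or more of the 5 genes), classical monocyte (Ly6c2 and Ccr2), nonclassical monocyte (Ace and Csf1r), conventional dendritic (Flt3 and 5 or more H2-Ab1, without Siglech) and Gpnmb-negative Trem2 (Trem2 and Csf1r), each without Cd3e and Cd79a. Neutrophils had 20 or more UMIs of S100a8 and S100a9 with Csf3r and without Csf1r. B cells had 2 or more of Cd79a without Cd3e and at most 1 UMI of Lyz2. Counts were summed per class and expressed as CPM with exact Poisson intervals. Ratios have exact conditional binomial 95% intervals, with a class at 0 set to 3 counts. With 1 library per group no test was possible, and no p-value is given. Cells were clustered jointly with Scanpy 1.11.5 and leidenalg 0.10.2 (2000 variable genes, 30 components, 15 neighbours, resolution 1.0) and named from fixed markers. Doublets were scored with Scrublet and left in. Computation used Python 3.11.15, numpy 2.4.6 and scipy 1.17.1, and the ratio step was tested on simulated data. Named genes are the 12 per direction (6 for single classes) with the best-bounded ratio at 50 CPM or more, plus up to 5 members per list and those against the list median. Genes in the splits of the members, and Cd44, Igf1, Cd3d and Lpl, were picked after their values were seen. The members and lists were chosen with earlier results of these data known. Promoters came from RefSeq on GRCm38.p6. Alternatives were other gates, filters, depth, subtraction of mean B cell counts and comparison cells.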

Additional observations from a re-analysis of the deposited data

How the results depend on the processing

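Shares of LAM cells moved with the gate. With at least 2 Gpnmb UMIs they were 0.940% in HFD_sed and 0% in S (0 of 10615 cells, up to 0.0283%), and with both Trem2 and Spp1 they were 0.00955% in HFD_EXE, 0.398% in HFD_sed and 0% in S. Without cells carrying markers of another lineage, which shrinks the denominator by construction, they were 0.152% in HFD_EXE and 2.86% in HFD_sed. Thinned to 2000 UMIs, among cells of at least that depth, they were 0% in HFD_EXE and 0.747% in HFD_sed. HFD_sed had the highest share in each of these settings, none of which relaxed the limit on Clec4f. Thinning, which leaves fewer counts, gave 447 genes called lower (1352 in the main result), and a ratio of at least 2 gave 304 higher and 777 lower. As a stand-in for free RNA, the mean counts of a B cell were subtracted for every cell of a class. This also takes away counts that B cells make themselves, so it does not measure free RNA. With it 990 genes were higher (606 in the main result), and the cause was not tested. The other settings gave 450 to 762 higher and 1182 to 1829 lower. None of the 24 genes named against other mononuclear phagocytes changed direction under any alternative that gave it a value, but 16 of them moved in each of the settings with 2 Gpnmb UMIs, with both genes and thinned, and 14 within the monocyte cluster. The log2 ratio ranged from 2.25 to 3.83 for Fabp5 and from -7.21 to -3.31 for Cd163. Among the scarce marker lists, the median turned positive for cholangiocyte markers (0.28 with 2 Gpnmb UMIs, 1.04 with both genes, 0.37 without other-lineage cells), stellate markers (0.88 with both genes, 0.13 without other-lineage cells, 0.70 thinned), neutrophil markers (0.27 without other-lineage cells, 0.037 thinned) and T and NK markers (0.48 thinned), and the cause was not tested. Medians near 0 also crossed it in at least 1 setting for the cholesterol, classical monocyte, MHC class II, alternative activation, efferocytosis, complement, interferon, immediate early and endothelial lists. The lipid-associated median stayed between 1.15 and 1.81 and the glycolysis median between 0.94 and 1.30. Alternatives by cluster, by Siglech and with classes weighted equally were chosen after seeing the data. No paired analysis was possible because each group has 1 library and the comparisons rest on no test. HFD_EXE and S had only 5 and 3 members, which limits what can be said of them.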
